A study of Mus musculus with 12 samples.

Results

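Ptprv, Inka2, Prrg4, Shisal2b, Fam196a, Zfp365, Dcxr, Slc19a2 and Ak1 are 9 genes of varied function whose transcripts stood far higher in irradiated mouse embryos labelled p53 knockout than in their untreated counterparts. They are 9 of 53647 gene IDs in the deposited expression table and 9 of 15535 genes tested here. They were picked for large increases at 1 h or 3 h in the libraries labelled knockout, with no numeric threshold, so their values in those libraries describe the choice and carry no test. Only changes among the libraries labelled wild type, which the choice did not use, were tested, and only for the 6 genes with measurable levels there.

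The libraries came from whole embryos at embryonic day 9.5. The 6 groups were embryos labelled p53 -/- (knockout) that were untreated, collected 1 h after irradiation or collected 3 h after irradiation, and embryos labelled p53 +/+ (wild type) at the same 3 points. Irradiation was 30 Gy of X-rays at 5 Gy per minute, given to the pregnant mouse. Each group held 2 libraries of polyadenylated RNA, numbered 1 and 2, and values below are given in that order. Libraries carrying the label knockout are called KO-labelled and those carrying the label wild type WT-labelled. The deleted part of Trp53, the strain, and whether a library holds 1 embryo or several have no entry in the labels. Values are TPM, a level per unit of transcript length scaled to the same sum in each library, so read depth is unknown and counting error cannot be stated.

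The genotype labels were checked with Trp53 (ENSMUSG00000059552), the gene encoding p53. It lay between 79.13 and 265.13 TPM in the 6 libraries labelled knockout and between 66.81 and 211.19 TPM in the 6 labelled wild type. The library labelled knockout held more Trp53 transcript than its counterpart of the same time and number in 5 of 6 pairs. Transcript level therefore went against the labels, and every group below is named as labelled. Ribosomal protein genes took 19.5% and 19.3% of TPM in the 1 h libraries numbered 2 labelled knockout and wild type, against 11.7% to 13.9% in the other 10 libraries. Results at 1 h that change without both of these libraries are given with that value.

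The protein p53 is a transcription factor that is stabilised after DNA damage. It binds paired decamers of DNA near or within its target genes and switches on programmes of cell-cycle arrest, DNA repair and cell death. Its best known targets include Cdkn1a, which encodes the inhibitor p21, and Mdm2, which encodes the ligase that degrades p53. The mouse embryo at this stage is known to be highly sensitive to p53-dependent cell death. The 9 genes here encode proteins of varied kinds, among them proteins of the cell surface, of synapses, of metabolism and of genome stability. Whether any of them is itself a p53 target was not tested.

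Promoter sequences were read to see whether the genes share a p53 motif close to their start. RefSeq windows on GRCm38.p6, from 250 bases before to 50 after a gene's start, were at hand for 8 of the 9 genes, in 12 windows. Ptprv had none. An exact p53 decamer (the p53 consensus, searched on both strands) occurred in 1 of the 12 windows, an Inka2 window, and in 8.36% of all 32851 windows. Next to it in the Inka2 window a further decamer with 1 mismatch lay 12 bases away, and a pair with at most 1 mismatch occurred in 0.627% of all windows. The best pair had 2 mismatches in Zfp365 (4.09% of all windows held a pair this good) and 3 mismatches in Dcxr (13.8% of all windows). The pair in Cdkn1a, shown for comparison, had no mismatch, as in 0.0731% of all windows. The decamers are in capitals.
Inka2, chr3:105705340-105705401, plus strand: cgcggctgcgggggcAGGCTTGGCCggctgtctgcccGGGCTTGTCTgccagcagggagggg
Zfp365, chr10:67912691-67912740, minus strand: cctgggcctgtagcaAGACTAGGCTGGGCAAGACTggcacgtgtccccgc
Dcxr, chr11:120727371-120727421, minus strand: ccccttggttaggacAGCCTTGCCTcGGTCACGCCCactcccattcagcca
Cdkn1a, chr17:29090891-29090952, plus strand: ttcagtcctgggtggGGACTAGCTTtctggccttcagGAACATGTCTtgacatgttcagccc

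The first capital lay 103 bases before the start in Inka2, 63 in Zfp365, 122 in Dcxr and 73 in Cdkn1a. Windows of the other 5 genes held no such pair with up to 3 mismatches and a spacer of up to 13 bases. The TATA element TATAAA was found in 3 of the 8 genes, CCAAT in 3 and the GC box GGGCGG in 3, each searched on both strands. Of all windows 13.6% held TATAAA, 37.4% CCAAT and 35.7% GGGCGG. These are shares per window, which do not compare with counts per gene, since a gene with several windows has more chances. These matches describe letters in a short window and say nothing of sites elsewhere in the genes.

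Among the genes of the cell surface, Ptprv (ENSMUSG00000097993) encodes a receptor-type tyrosine phosphatase, and the annotation used for names classes it as a processed transcript. KO-labelled libraries held 0.03 and 0.03 TPM untreated, 1.18 and 0.21 TPM at 1 h, and 49.73 and 35.77 TPM at 3 h. WT-labelled libraries held 0.02 and 0.38 TPM untreated, 0.10 and 0.02 TPM at 1 h, and 0.77 and 0.04 TPM at 3 h. Ptprv was at 1.18 TPM or less in every library outside the 3 h KO-labelled group, and its log2 fold change there over untreated, 5.39 (SE 0.352), was the largest of the 9. Fold changes are log2 differences of TPM + 1 throughout, a scale that shrinks the change of genes at low levels.

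Prrg4 (ENSMUSG00000027171) encodes a single-pass membrane protein with a Gla domain, the calcium-binding module of vitamin K-dependent clotting factors. Its KO-labelled levels were 0.54 and 1.02 TPM untreated, 0.74 and 1.26 TPM at 1 h, and 40.92 and 60.45 TPM at 3 h. Its WT-labelled levels were 0.53 and 1.08 TPM untreated, 0.61 and 0.80 TPM at 1 h, and 0.90 and 1.29 TPM at 3 h. Prrg4 at 1 h overlapped the untreated libraries under both labels, and the whole difference lay at 3 h under the knockout label (log2 fold change 4.85, SE 0.273).

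Shisal2b (ENSMUSG00000042655), a Shisa-like membrane protein of little known function, was listed at 0 and 0.26 TPM untreated, 0.04 and 0 TPM at 1 h, and 20.31 and 13.48 TPM at 3 h under the knockout label. Under the wild type label it was listed at 0.96 and 0.25 TPM untreated, 0.09 and 0 TPM at 1 h, and 0.42 and 0.07 TPM at 3 h. It had the lowest 3 h levels of the 9 genes, with a log2 fold change of 3.97 (SE 0.289) over untreated under the knockout label.

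Slc19a2 (ENSMUSG00000040918), which encodes a high-affinity thiamine transporter, was high at both times under the knockout label. KO-labelled libraries held 2.81 and 4.3 TPM untreated, 16.48 and 29.20 TPM at 1 h, and 52.06 and 83.90 TPM at 3 h. WT-labelled libraries held 3.30 and 5.52 TPM untreated, 4.55 and 7.27 TPM at 1 h, and 4.23 and 4.83 TPM at 3 h. The 1 h libraries labelled knockout were already above all untreated ones, with a log2 fold change of 2.35 (SE 0.369), and the 3 h libraries were higher again, with 3.90 (SE 0.369) over untreated.

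Of the genes for intracellular regulators, Inka2 (ENSMUSG00000048458) encodes an inhibitor of the kinase PAK4. Its KO-labelled levels were 1.36 and 0.98 TPM untreated, 7.76 and 10.89 TPM at 1 h, and 40.63 and 41.28 TPM at 3 h. Its WT-labelled levels were 0.85 and 1.60 TPM untreated, 0.74 and 1.21 TPM at 1 h, and 1.32 and 0.92 TPM at 3 h. Like Slc19a2 it was high at both times under the knockout label, with log2 fold changes of 2.24 (SE 0.248) at 1 h and 4.28 (SE 0.248) at 3 h. It is also the gene whose window holds the closest p53 decamer pair of the 8 with a window.

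Fam196a (ENSMUSG00000073805, Insyn2a in RefSeq) encodes a protein of the postsynaptic side of inhibitory synapses. KO-labelled libraries held 0.31 and 0.53 TPM untreated, 0.29 and 0.98 TPM at 1 h, and 29.09 and 29.31 TPM at 3 h. WT-labelled libraries held 0.28 and 0.47 TPM untreated, 0.43 and 0.35 TPM at 1 h, and 0.52 and 0.63 TPM at 3 h. The 2 libraries at 3 h labelled knockout were almost equal, and the log2 fold change over untreated was 4.41 (SE 0.227).

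Zfp365 (ENSMUSG00000037855) encodes a zinc finger protein whose human counterpart is linked to genome stability under replication stress. Its KO-labelled levels were 2.52 and 2.15 TPM untreated, 3.53 and 6.16 TPM at 1 h, and 95.82 and 108.28 TPM at 3 h. Its WT-labelled levels were 1.53 and 2.08 TPM untreated, 1.08 and 2.00 TPM at 1 h, and 2.32 and 1.84 TPM at 3 h. The 1 h libraries labelled knockout lay above the untreated ones by a log2 fold change of 0.77 (SE 0.270), against 4.95 (SE 0.270) at 3 h.

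The remaining genes encode enzymes of metabolism. Dcxr (ENSMUSG00000039450), a reductase of L-xylulose and of dicarbonyl compounds in the glucuronate pathway, stood at 3.81 and 3.59 TPM untreated, 6.69 and 8.99 TPM at 1 h, and 109.86 and 139.19 TPM at 3 h under the knockout label. The wild type label gave 3.78 and 5.18 TPM untreated, 2.66 and 6.45 TPM at 1 h, and 2.41 and 5.05 TPM at 3 h. It reached the highest level of the 9 genes, with log2 fold changes under the knockout label of 0.90 (SE 0.378) at 1 h and 4.73 (SE 0.378) at 3 h.

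Ak1 (ENSMUSG00000026817), the cytosolic adenylate kinase that balances ATP, ADP and AMP, had the highest untreated level. Its KO-labelled levels were 18.68 and 14.37 TPM untreated, 20.44 and 18.95 TPM at 1 h, and 101.51 and 90.31 TPM at 3 h. Its WT-labelled levels were 13.26 and 14.74 TPM untreated, 15.08 and 12.23 TPM at 1 h, and 18.09 and 16.22 TPM at 3 h. From this higher base its log2 fold change at 3 h under the knockout label, 2.48 (SE 0.178), was the smallest of the 9.

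**Figure D1:**
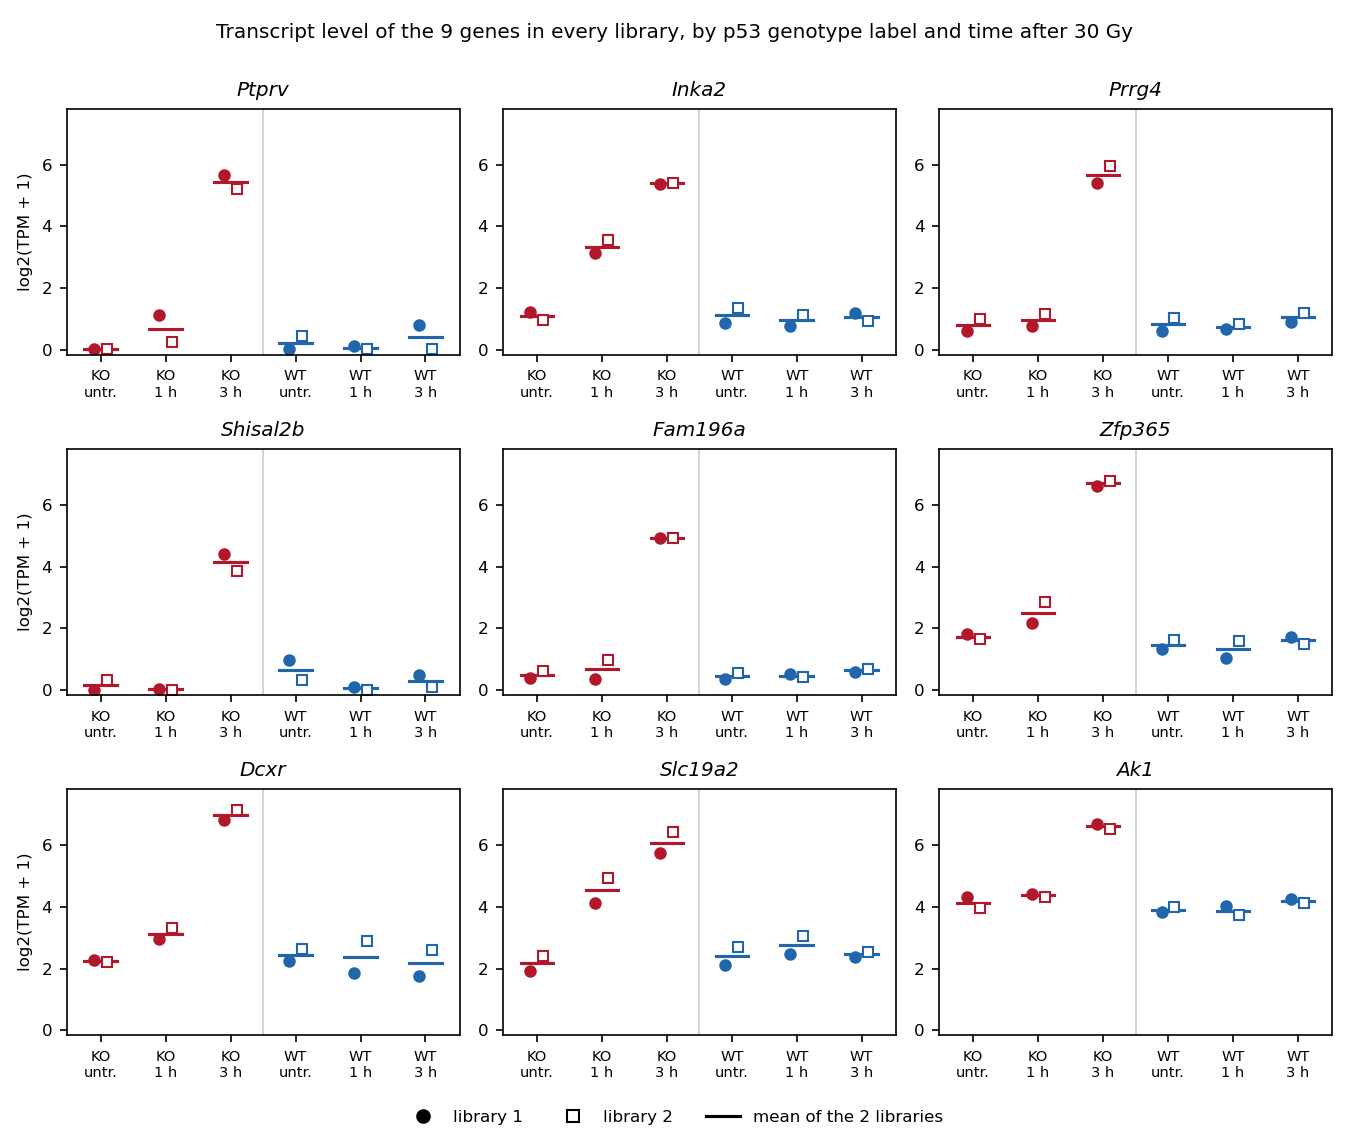
Level of each of the 9 genes in all 12 libraries as log2(TPM + 1), with the groups labelled knockout (KO, red) to the left of those labelled wild type (WT, blue). Points are libraries 1 and 2, and bars are their means. Each gene has its highest group in the 3 h libraries labelled knockout, and Inka2 and Slc19a2 stand high at 1 h as well.

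In the order of group means, the 3 h group labelled knockout came highest for all 9 genes, and its libraries overlapped no other group. For Inka2, Zfp365, Dcxr, Slc19a2 and Ak1 the 1 h group labelled knockout came next, again without overlap with the group below it. For the other 4 genes the neighbours in the order below the highest group all overlapped, and so did the neighbours below the 1 h group for the 5 genes just named. The high places of the libraries labelled knockout describe how the genes were chosen. The share of all genes with such an order was not counted. All 9 genes had passed the filter for testing, which asked for 1 TPM or more in 2 libraries or more. Ptprv, Shisal2b and Fam196a passed only through the 3 h libraries labelled knockout, and the other 6 would have passed without them.

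Over the 9 genes the median log2 fold change at 3 h under the knockout label was 4.41, against -0.12 over all 15535 genes. The 3 h libraries lay above the untreated ones without overlap for 9 of 9, where 19% of all genes did so. These shares follow from how the genes were chosen. Among all genes ranked by this fold change of TPM + 1, Ptprv stood at place 7, Zfp365 at 11, Prrg4 at 12, Dcxr at 13, Fam196a at 18, Inka2 at 20, Shisal2b at 26, Slc19a2 at 27 and Ak1 at 152. At 1 h the median was 0.66 against -0.06 over all genes, and 6 of 9 lay above untreated without overlap (11.3% of all genes). Slc19a2 and Inka2 held places 27 and 32 at 1 h, Dcxr 221, Zfp365 319, Ptprv 485, Ak1 2782, Fam196a 3742, Prrg4 3815 and Shisal2b 9277.

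Between the labels, the 9 genes were close before treatment. Among untreated libraries only Zfp365 lay higher under the knockout label without overlap (8.8% of all genes did so), with 2.52 and 2.15 TPM in the libraries labelled knockout against 1.53 and 2.08 TPM in those labelled wild type. At 1 h the libraries labelled knockout lay above those labelled wild type without overlap for 6 of the 9 (4.54% of all genes), and at 3 h for 9 of 9 (18.1% of all genes). These counts again use the libraries on which the genes were chosen.

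Changes among the WT-labelled libraries could be tested for Inka2, Prrg4, Zfp365, Dcxr, Slc19a2 and Ak1, the 6 genes that passed the filter without the 3 h libraries labelled knockout, and none passed. Ptprv, Shisal2b and Fam196a stayed at 0.96 TPM or less in every WT-labelled library, where a difference of log2(TPM + 1) has little room, and only their values are given. At 1 h against untreated limma called 0 of the 6 genes and 0 of all 15535 (0% called), with 618 of all genes and 0 of the 6 at an unadjusted p under 0.05. At 3 h against untreated it again called 0 of 6 and 0 of 15535 (0% called), with 524 of all genes and 0 of the 6 at an unadjusted p under 0.05. At 3 h against 1 h the calls were also 0 of 6 and 0 of 15535 (0% called), with 928 and 0 at an unadjusted p under 0.05. Whether the 2 libraries of a group are separate litters is not stated by the labels, so the p values measure only the spread between libraries, which may be technical.

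The intervals show which changes these tests leave possible under the wild type label. Slc19a2 at 1 h had a log2 fold change of 0.36 with a 95% interval of -0.49 to 1.20, the highest upper bound of the 6 genes at 1 h. Inka2 at 1 h had -0.16 with an interval of -0.73 to 0.40. Inka2 (0.74 to 1.6 TPM) and Prrg4 (0.53 to 1.29 TPM) lay near the filter in the WT-labelled libraries. There the scale of TPM + 1 narrows intervals, so larger changes in TPM itself remain possible. At 3 h the estimates of the 6 genes ran from -0.26 (Dcxr, interval -1.12 to 0.60) to 0.28 (Ak1, interval -0.13 to 0.68). The highest upper bound at 3 h was 0.90, in Slc19a2, whose estimate was 0.06 and lower bound -0.78.

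A few small differences in the libraries labelled wild type did not overlap. Ak1 was higher at 3 h than untreated, where 17.3% of all genes were (limma adjusted p = 1). Prrg4 and Ak1 were higher at 3 h than at 1 h, where 20.1% of all genes were, with a limma adjusted p of 0.917 for Ak1. Of the 3 genes given by their values, Shisal2b lay lower at 1 h than untreated (16% of all genes did), and Fam196a lay higher at 3 h than at either earlier point.

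**Figure D2:**
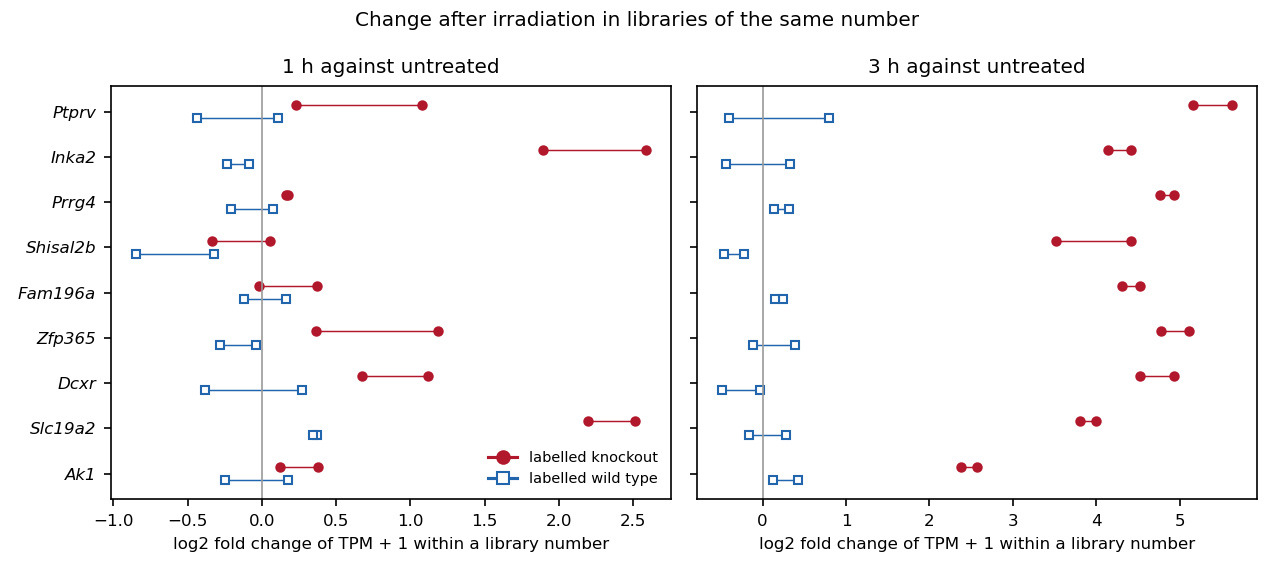
Log2 fold change of TPM + 1 against untreated for each gene at 1 h (left) and 3 h (right), computed within libraries of the same number. Red points are the label knockout and blue squares the label wild type, with a line joining numbers 1 and 2. At 3 h all knockout-label points lie above 2 and all wild-type-label points below 1.

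The 9 genes differed in when they reached their level. The share of the 3 h gain in mean TPM already present at 1 h, under the knockout label, was 29.9% for Slc19a2 and 20.5% for Inka2. It was 3.99% for Ak1, 3.43% for Dcxr, 2.52% for Zfp365 and 1.56% for Ptprv. For Fam196a it was 0.747%, for Prrg4 0.441% and for Shisal2b -0.656%. The genes thus fell into a pair with a visible early part and 7 with little or none at 1 h. Without both 1 h libraries numbered 2 the 1 h log2 fold changes of Prrg4 and Fam196a were -0.02 and -0.13, against 0.17 and 0.17 with them. Without them Ptprv had 1.08, against 0.66, and Zfp365 had 0.44, against 0.77, and the median of the 9 genes was 0.44, against 0.66. Ptprv had 0.23 without the 1 h library labelled knockout numbered 1.

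Known p53 targets spanned a wider range of timing. Of 49 listed targets 48 were tested, and 39 rose at 3 h under the knockout label and 0 fell, where 6.25% of all genes rose (limma, adjusted p under 0.05, median log2 fold change 2.21 against -0.12 over all genes). Without 1 of the 3 h libraries labelled knockout 44 were tested, so some of the 39 may have entered the test through that group. At 1 h, with all libraries, 4 rose and 0 fell, where 0.0837% of all genes rose (median 0.39 against -0.06). Of these 4, Cdkn1a remained called and Sesn2, Phlda3 and Pmaip1 did not without both 1 h libraries numbered 2. Without 1 library at a time Cdkn1a kept its call each time, while Sesn2 lost it without 2 of the libraries, Pmaip1 without 8 and Phlda3 without 10. Under the wild type label 0 of 48 were called in each comparison, with medians of -0.02 at 1 h and 0.01 at 3 h, and 2 at 1 h, 3 at 3 h and 5 between 3 h and 1 h had an unadjusted p under 0.05.

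Across the 39 that rose, the share of the 3 h gain present at 1 h had a median of 10.3%, and it ran from -8.01% in Foxo3, a forkhead factor, to 58.1% in Bbc3, which encodes the death protein PUMA. Cdkn1a stood at 15.4% and Mdm2 at 10.8%. The median of the 9 genes was 2.52%, so 7 of them lay below the median target and below Cdkn1a and Mdm2, and Inka2 and Slc19a2 above all of these values. No test was made of this difference, because both sets share the libraries and one was chosen on them.

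**Figure D3:**
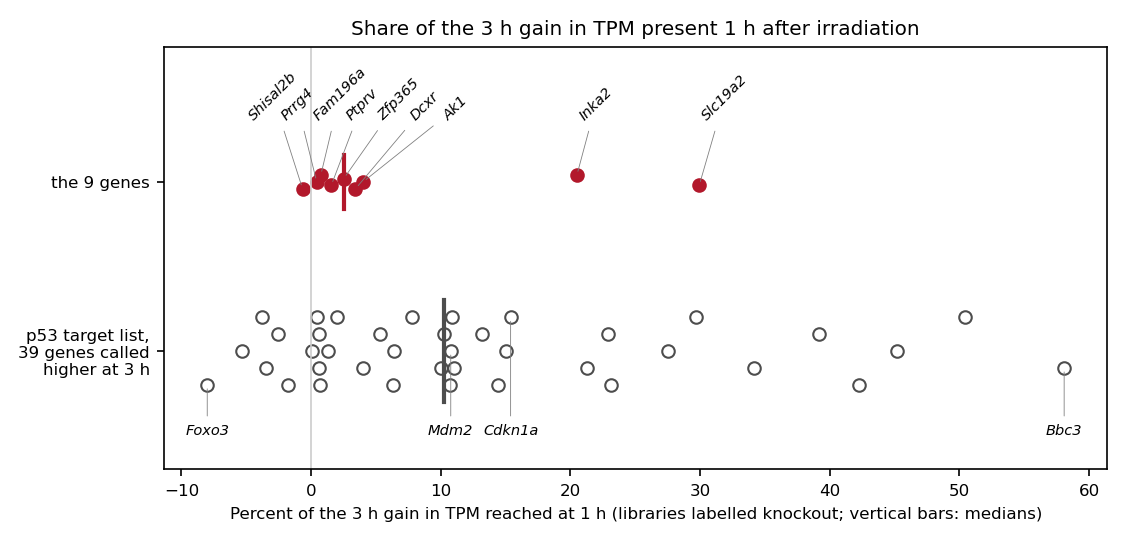
Percent of the gain in mean TPM between untreated and 3 h that was present at 1 h in the libraries labelled knockout, for the 9 genes (top, red) and for the 39 p53 targets called higher at 3 h (bottom, open circles). Vertical bars are medians, 2.52% and 10.3%. Slc19a2 and Inka2 lie apart from the other 7 genes.

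Among the p53 targets, Pmaip1, Cdkn1a, Eda2r and Trp53inp1 had larger fold changes of TPM + 1 at 3 h than any of the 9 genes. Pmaip1, the gene of the BH3-only protein NOXA, had 238.34 and 216.77 TPM in the 3 h libraries labelled knockout against 1.88 and 1.23 TPM in the untreated ones (log2 fold change 6.49, SE 0.271, limma adjusted p = 9.85e-06). Cdkn1a had 498.77 and 444.33 TPM against 6.88 and 5.38 TPM (6.06, SE 0.187, adjusted p = 2.27e-06). Eda2r, Trp53inp1, Ccng1 and Fas followed with log2 fold changes of 5.57, 5.50, 5.28 and 5.18. Of the 9 genes Ptprv, at 5.39, lies within this range and the other 8 lie below it on the scale of TPM + 1. The order rests on the pseudocount, since log2 differences of TPM + 0.1 were 8.35 for Ptprv, 7.13 for Pmaip1 and 6.25 for Cdkn1a. With TPM + 0.1 the lowest of the targets just named was Ccng1, at 5.36. Shisal2b then had 6.46, Prrg4 5.88, Fam196a 5.85 and Zfp365 5.39. Inka2 had 5.03, Dcxr 5.03, Slc19a2 4.21 and Ak1 2.54.

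Close relatives of the 9 genes were called at 3 h under the knockout label about as often as all genes in this fit. Of 24 listed relatives 23 were in the table and 15 were tested, and at 3 h under the knockout label 1 rose and 1 fell, where 12.1% of all genes changed (limma). Their median log2 fold change was -0.02. Ptprj, a receptor-type phosphatase like Ptprv, had 17.05 and 22.06 TPM in the 3 h libraries labelled knockout against 4.57 and 6.25 TPM in the untreated ones (1.68, SE 0.241, limma adjusted p = 0.00269). Slc19a1, the reduced folate carrier of the same family as Slc19a2, had 8.60 and 13.41 TPM against 20.30 and 25.90 TPM (-1.03, SE 0.234, limma adjusted p = 0.0238). Neither was called with only the groups compared in the fit, and Slc19a1 was not called without the 3 h library labelled knockout numbered 1 or without either untreated library labelled knockout.

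The other relatives missed the threshold in this fit. Inka1 had a log2 fold change of 0.30, Cbr2, a carbonyl reductase next to Dcxr in the genome, 0.79, and Insyn1, another inhibitory synaptic factor, 1.04. Among adenylate kinases Ak3 had 0.17, Ak4 -0.44, Ak5 0.77 and Ak6 -0.45. Of the relatives of Prrg4, Prrg1 had -0.21, Prrg2 -0.02 and Prrg3 -0.58. At 1 h and under the wild type label 0 of 15 were called (limma). The number at an unadjusted p under 0.05 was 2 at 1 h under the knockout label, and 1 at 1 h and 0 at 3 h under the wild type label.

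**Figure D4:**
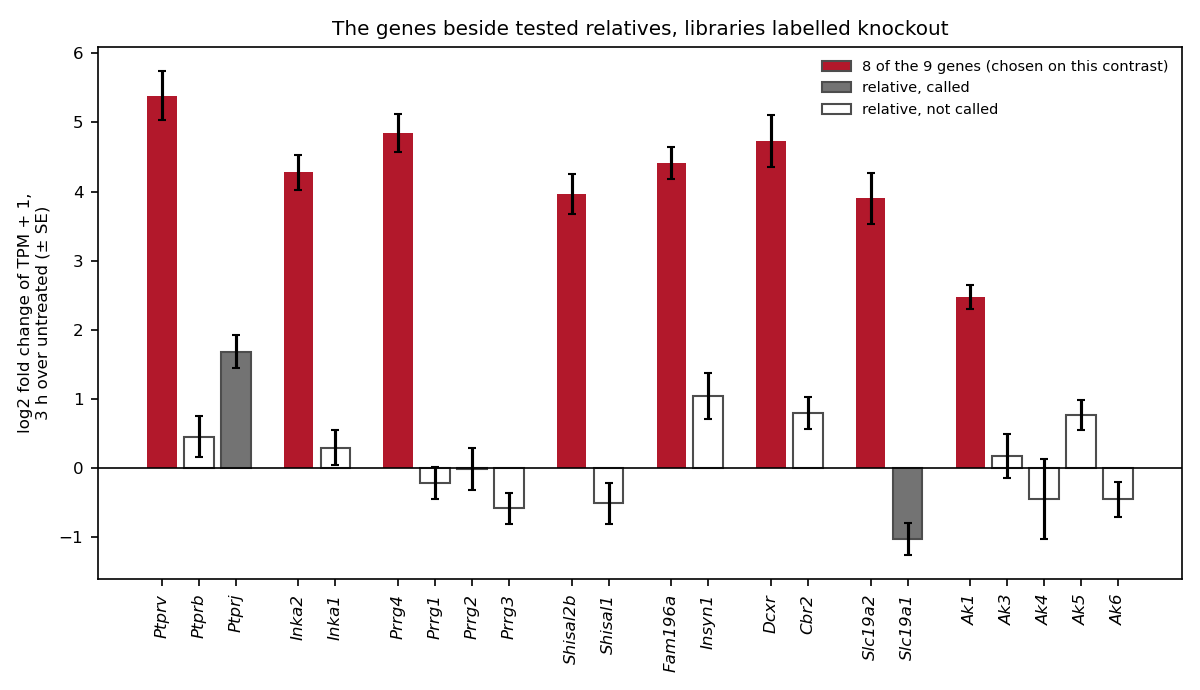
Log2 fold change (± SE) of TPM + 1 at 3 h over untreated in the libraries labelled knockout, for 8 of the 9 genes (red) beside tested relatives. Filled grey bars passed the test and open bars did not. Ptprj, at 1.68, and Slc19a1, at -1.03, are the only relatives drawn as called. Zfp365 has no relative in the list.

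In the pathways of the metabolic genes, other members rose at 3 h under the knockout label, where 6.25% of all genes rose and 5.87% fell. Of 14 tested genes of thiamine use and adenylate balance 3 rose and 0 fell. They were Ampd2 and Ampd3, which encode AMP deaminases, with 59.4 ± 10.2 and 3.49 ± 0.856 TPM at 3 h against 26.7 ± 5.23 and 0.950 ± 0.198 TPM untreated, and Prkaa2, a catalytic subunit of AMP-activated kinase, with 5.69 ± 1.04 against 2.44 ± 0.0849 TPM (SD, n = 2 each). Of 11 tested genes of the glucuronate and pentose pathway 2 rose and 0 fell, Rpe, the ribulose-phosphate epimerase, and Sord, sorbitol dehydrogenase. Rpe had 57.9 ± 1.14 TPM at 3 h against 29.4 ± 3.55 TPM untreated, and Sord had 27.95 ± 1.06 TPM against 12.8 ± 3.38 TPM (SD, n = 2 each). Ampd3 passed the filter only through the 3 h libraries labelled knockout, so its values are described only.

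Of 10 tested genes of PAK kinases and their partners, Pak6 stood at 3.47 ± 0.516 TPM at 3 h against 0.385 ± 0.304 TPM untreated. Pak1 fell to 25.5 ± 2.95 TPM against 43.7 ± 4.79 TPM (SD, n = 2 each). Of 4 tested genes of the inhibitory synapse limma called 0, with 1 at an unadjusted p under 0.05. In all, limma called 6 of the 39 tested genes of these 4 lists higher and 1 lower. Of these 7 genes Ampd3 and Pak6 passed the filter only through the 3 h libraries labelled knockout, so no p is given for them. Their entry into the test rested on the libraries where they are high, so their calls add nothing to the count. Ampd2, Prkaa2, Rpe, Sord and Pak1 had limma adjusted p between 0.00551 and 0.0322. None of the 7 was called with only the groups compared in the fit. Rpe kept its call without any 1 library. Ampd2, Ampd3, Prkaa2, Sord and Pak1 each lost theirs without at least 1 of the libraries labelled knockout at 3 h or untreated. Without either of the 3 h ones Pak6 no longer passed the filter. At 1 h under the knockout label, and at 1 h and 3 h under the wild type label, limma called 0 of the 39 tested genes in these 4 lists, with 6, 2 and 1 at an unadjusted p under 0.05.

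The transcripts most like each gene were sought over all 12 libraries, each scaled to percent of its highest library and compared by mean absolute difference. Ptprv lay nearest to Ces2g (0.579 percentage points), a carboxylesterase gene that stood at 1.81 and 1.29 TPM in the 3 h libraries labelled knockout. Prrg4 lay nearest to Gm45597 and Ltb4r1, a leukotriene receptor (0.933 and 1.00 points), Fam196a to Nipal4 and Ltb4r2 (0.822 and 1.05 points), and Zfp365 to Tap1, a peptide transporter and p53 target (0.993 points). Dcxr lay nearest to Mab21l3 (0.937 points), Shisal2b to Ces2g (1.28 points), and Ak1 to Micall2 and Krt5, a keratin gene (1.97 and 2.03 points).

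Inka2 lay nearest to Ddit4l, an inhibitor of mTOR signalling (2.30 points), and Slc19a2 to Sesn2, the sestrin that restrains mTOR under stress, and Ddit4l (3.52 and 4.14 points). Sesn2 had 10.17 and 9.33 TPM untreated, 63.83 and 77.94 TPM at 1 h and 206.43 and 257.25 TPM at 3 h under the knockout label. Among the 9 genes themselves the closest pair was Ptprv and Shisal2b (1.305 points). These are descriptions over 12 libraries, 10 of which hold low values for most of these genes.

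Genes next to the 9 were read to see whether neighbouring transcripts differed as well. Fam196a lies within Dock1 on the opposite strand, and no source used here says whether reads were counted by strand. Dock1, a guanine nucleotide exchange factor, was at 23.10 and 26.77 TPM at 3 h against 27.31 and 30.84 TPM untreated under the knockout label (log2 fold change -0.21, limma adjusted p = 0.505). Gm45597, which overlaps Fam196a on the same strand, was at 1.94 and 2.86 TPM against 0.02 and 0.13 TPM (log2 fold change 1.65). Gm45597 passed the filter only through the 3 h libraries labelled knockout, so only its values are given. Its reads may not be separable from those of Fam196a. Ptpn7, a phosphatase gene next to Ptprv, rose to 7.06 and 6.31 TPM against 0.89 and 0.74 TPM (2.08, limma adjusted p = 0.000390), and Gm10535, antisense to Ptprv, reached 1.15 and 0.82 TPM in those libraries without passing the filter.

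Other neighbours changed less. Eng, an endothelial coreceptor next to Ak1, rose by 0.88 on the log2 scale (limma adjusted p = 0.00801), and Ddx20, next to Inka2, fell by 0.75 (adjusted p = 0.0358). Eng and Ddx20 each lost their call without at least 1 of the libraries labelled knockout at 3 h or untreated. F5, a clotting factor next to Slc19a2, stood higher by 0.82. It passed the filter only through the 3 h libraries labelled knockout, so no p is given for it. The tested neighbours of Prrg4, Shisal2b, Zfp365 and Dcxr were not called.

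Markers of several cell types also differed at 3 h under the knockout label, the point at which the 9 genes stood highest. Of all genes 6.25% were called higher there and 5.87% lower. The summed level of 7 primitive erythroid markers was 12440 to 14333 TPM at 3 h against 2071 to 5574 TPM untreated, with 4 of 7 called higher. WT-labelled libraries held 6508 to 6540 TPM untreated, 9168 to 11674 TPM at 1 h and 4839 to 7218 TPM at 3 h. The untreated libraries labelled knockout were thus lower than the untreated WT-labelled ones. Between the labels at 3 h limma called 0 of the 7, with 2 at an unadjusted p under 0.05. The 6 neural progenitor markers summed to 122.5 to 125.05 TPM against 284.1 to 319.1 TPM, with 4 of 6 called lower. Of 8 neuronal markers 1 was higher and 3 were lower (54.99 to 62.91 TPM against 65.74 to 118.9 TPM), of 6 somite markers 1 was lower (48.36 to 56.04 TPM against 70.84 to 96.94 TPM), and of 5 endothelial markers 1 was higher (183.7 to 191.7 TPM against 134.6 to 146.6 TPM). In whole embryos fewer cells of a type and less RNA per cell cannot be told apart.

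Cardiac markers summed to 2422 to 2683 TPM at 3 h against 1428 to 1920 TPM untreated, and visceral endoderm markers to 167.5 to 451.3 TPM against 22.94 to 144.9 TPM, with limma calling 0 of 6 and 0 of 8 (2 and 3 at an unadjusted p under 0.05). Of 3 tested trophoblast markers 1 was higher. All 6 on that list summed to 8.37 to 10.23 TPM against 5.00 to 5.03 TPM, with Tpbpa listed at 0 throughout. Of 3 tested decidua markers 1 was higher, and the 5 listed summed to 91.87 to 97.07 TPM against 51.28 to 56.57 TPM. Prl8a2 was listed at 0 throughout. White blood cell markers had 0 of 2 called by limma and 0 at an unadjusted p under 0.05. The 5 listed summed to 5.09 to 5.29 TPM against 3.18 to 4.12 TPM. The part of these differences in the levels of the 9 genes was not tested.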

How the data were processed

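The authors deposited TPM for 53647 gene IDs in 12 libraries, per the labels' protocols from polyadenylated RNA (about 500 ng, paired reads of 75 bp). Per the submitters' processing notes, the tools included RSEM 1.3.3, STAR 2.7.3a and HTSeq 0.12.3 and the build was GRCm39, with no role given for each tool. Depth is not held by TPM. Symbols came by gene ID from an annotation of an earlier build (97.1% of IDs matched), used also for neighbours, with none of its coordinates printed.

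The 15535 genes that reached 1 TPM in 2 or more libraries were fitted as log2(TPM + 1) with limma 3.58.1 in R 4.3.3, with a mean for each of 6 groups over all 12 libraries, a trend of the spread, and 6 residual degrees of freedom. Tests were two-sided, adjusted by Benjamini-Hochberg over all genes, and called under 0.05. The script was tested on simulated data. Figures used matplotlib 3.10.9.

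The 9 genes, the 6 pathway lists and the 10 marker lists were chosen with earlier results of these data known. Other genes named are Trp53, Cdkn1a and Mdm2, the 6 p53 targets called with the largest fold change at 3 h, up to 4 called genes of each other list by p, and the 2 nearest profiles of each gene. Some genes that these rules name are not reported here. Neighbouring genes, further relatives, and Foxo3 and Bbc3 as the ends of a range were named after their values were seen.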

Additional observations from a re-analysis of the deposited data

Results flagged for a closer look

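For 4 results both libraries moved one way under the knockout label and the opposite way under the wild type label when libraries of the same number were set against each other. The difference between the labels was not tested in any of them, since the genes were chosen on the libraries labelled knockout. The rise under the knockout label describes the choice of genes. The share of all genes with such a pattern was not counted, so the number of such results says nothing particular of these genes. What a library number marks is not known. Under the wild type label the values by number were small, -0.09 and -0.23 for Inka2 and -0.28 and -0.04 for Zfp365 at 1 h. At 3 h they were -0.46 and -0.22 for Shisal2b and -0.49 and -0.03 for Dcxr. Inka2 at 1 h had a log2 fold change of 2.24 under the knockout label and -0.16 under the wild type label, a difference of 2.40. Zfp365 at 1 h had 0.77 and -0.16, a difference of 0.93. Shisal2b at 3 h had 3.97 and -0.34, a difference of 4.31. Dcxr at 3 h had 4.73 and -0.26, a difference of 4.99. The values of Inka2, Zfp365 and Dcxr under the wild type label had 95% intervals that include 0, and Shisal2b stayed under 1 TPM there.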

How the results depend on the processing

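Each of the 9 genes stood higher at 3 h than untreated under the knockout label in each of the 20 alternatives in which it passed the filter. With a pseudocount of 0.1 their log2 fold changes ran from 2.54 to 8.35, with Ptprv at 8.35 and Shisal2b at 6.46. Without either 3 h library labelled knockout 7 of the 9 passed the filter. Under the wild type label 360 values of the 6 tested genes over 20 alternatives gave 0 calls, with a lowest limma adjusted p of 0.308. Size factors moved the median of all genes at 3 h under the knockout label to -0.02, against -0.12 as deposited.

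Counts over all genes depended more on the setting. At 1 h under the wild type label, 0 calls became 4 without a filter and 2 without both 1 h libraries numbered 2, a choice made after seeing the data. At 3 h they became 15 without a filter, 4 with size factors, 3 with quantile normalization, 24 with the replicate block and 1 without both 1 h libraries numbered 2. For 3 h against 1 h they became 4 without a filter, 13 with the block and 3 without those libraries. Under the knockout label the 16 calls at 1 h became 142 with the block, 0 with only the groups compared and 5 without both 1 h libraries numbered 2. The 1883 at 3 h became 4534 with the block and 466 with only the groups compared. The 4 p53 targets at 1 h became 13 with the block, 0 with only the groups compared and 1 without those libraries. The 2 relatives at 3 h became 7 with the block and 0 with only the groups compared. The causes were not tested.

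Leaving out 1 library at a time gave 0 to 2 calls at 1 h, 0 to 1 at 3 h and 0 to 1 for 3 h against 1 h under the wild type label. Under the knockout label it gave 2 to 15 at 1 h and 605 to 1938 at 3 h, 1 to 4 p53 targets at 1 h and 30 to 39 at 3 h, and 1 to 3 relatives at 3 h. A lone library was assumed to vary like the other groups.

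Small fold changes of single genes turned sign without both 1 h libraries numbered 2, namely -0.020 for Prrg4 and -0.13 for Fam196a at 1 h under the knockout label, 0.10 for Ak1 at 1 h and 0.31 for Dcxr at 3 h against 1 h under the wild type label. Without 1 library, the 1 h values under the knockout label ran from -0.13 to 0.48 for Fam196a, -0.027 to 0.36 for Prrg4 and -0.31 to 0.028 for Shisal2b. Under the wild type label at 1 h they ran from -0.18 to 0.10 for Ak1, -0.57 to 0.45 for Dcxr, -0.081 to 0.12 for Fam196a, -0.41 to 0.084 for Inka2, -0.29 to 0.15 for Prrg4, -0.38 to 0.054 for Ptprv and -0.42 to 0.10 for Zfp365. At 3 h they ran from -0.67 to 0.15 for Dcxr, -0.30 to 0.19 for Inka2, -0.19 to 0.58 for Ptprv, -0.24 to 0.36 for Slc19a2 and -0.0044 to 0.28 for Zfp365, and for 3 h against 1 h from -0.71 to 0.31 for Dcxr, -0.066 to 0.28 for Inka2 and -0.026 to 0.74 for Ptprv.

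Libraries that share a number also shared deviations from the group means (correlation across genes 0.327 to 0.796 in 15 pairs of groups), but the labels do not say what a number marks, and 2 numbers are too few to show pairing. Depth is unknown in TPM, so counting error limits the low values by an unknown amount.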

Other observations

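Library number went with the level of many genes of the series within groups, and the 9 genes are given beside all tested genes. The library numbered 2 was the higher in 6 of 6 groups for Prrg4 and Slc19a2, in 5 for Fam196a and Dcxr, in 4 for Inka2 and Zfp365, and in 1 for Ptprv, Shisal2b and Ak1. Over all tested genes 30.4% were higher in number 2 in all 6 groups, 15.9% in 5, 13.7% in 4 and 8.31% in 1. Whether the 9 genes differ from all genes in this was not tested. What the number marks is not given in the sources used here.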
